A study of Mus musculus with 14 samples.

Results

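The Bcl2 family of survival and death genes was read on Affymetrix arrays in mouse Th1 and Th2 cells, 2 kinds of helper T cell known for interferon gamma and for interleukin 4. The family was taken as 10 genes, Bcl2, Bcl2l1, Mcl1, Bak1, Bax, Bcl2l11, Bbc3, Pmaip1, Bid and Bad, and every probe set annotated to 1 of these symbols alone was used. This gave 29 of 45101 probe sets and 9 of the 18194 genes that have a probe set of their own. Bax, an effector of the family, had no probe set named for it in the annotation and is not analysed here. The members were chosen by name and not by their values, though earlier results of these data were known.

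Total RNA came from T cells that had spent 2 weeks under Th1 or Th2 polarising conditions, and the series asks which transcripts respond to inhibition of Trpm4, a cation channel that opens when calcium rises in the cell. There were 14 conditions with 1 array each. In each cell type these were untreated cells, cells given Thy1 siRNA, cells given Trpm4 siRNA, cells infected with vector only, and cells infected with a virus carrying dominant negative (DN) Trpm4. Both infected groups were stimulated for 4 h or 12 h, and no length of stimulation is given for the other cells. Strain, age, the stimulus and the promoter that drives the DN construct are not given in the labels. No condition had a replicate, so pairs of arrays that differ in 1 factor served in place of replicates, and p-values measure the spread between these arrays only, which may be technical. Arrays of 1 cell type and set may share a culture, so their pairs are not independent. Precision is limited throughout by how few arrays there are.

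The family decides whether the outer membrane of the mitochondrion stays closed. Bcl2, Bcl2l1 (Bcl-xL) and Mcl1 are survival proteins that hold the membrane intact. Bak1 and Bax are the effectors that form pores in it and let cytochrome c out. The BH3-only proteins Bcl2l11 (Bim), Bbc3 (Puma), Pmaip1 (Noxa), Bid and Bad carry death signals by binding the survival proteins or the effectors. In T cells Mcl1 and Bcl2 are known for keeping cells alive on cytokine signals, and Bcl2l11 for the death of cells after an immune response or loss of cytokine.

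The sequence just upstream of the start site is shown for the members on which the results turn, Mcl1, Bcl2 and Bcl2l11, with a short stretch of Bbc3. The 250 bases before each start come from RefSeq's table for GRCm38.p6, which matched 9 members in 15 windows. Pmaip1 was not in the table. Each line runs 5′ to 3′ on the strand of the gene, and capitals mark matches to the searched motifs.
Mcl1, chr3:95658471-95658720, plus strand: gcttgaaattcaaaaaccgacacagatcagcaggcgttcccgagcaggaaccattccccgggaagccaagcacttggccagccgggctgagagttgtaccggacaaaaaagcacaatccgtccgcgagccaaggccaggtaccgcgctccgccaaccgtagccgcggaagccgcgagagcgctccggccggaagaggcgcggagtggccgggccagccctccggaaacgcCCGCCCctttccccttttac
Bcl2, chr1:106714291-106714540, minus strand: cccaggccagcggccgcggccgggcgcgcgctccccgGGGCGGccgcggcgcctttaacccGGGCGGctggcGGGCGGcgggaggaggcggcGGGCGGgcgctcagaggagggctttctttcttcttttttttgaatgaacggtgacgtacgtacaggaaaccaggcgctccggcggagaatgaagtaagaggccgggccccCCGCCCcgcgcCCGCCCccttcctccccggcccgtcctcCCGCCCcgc
Bcl2l11, chr2:128125788-128126037, plus strand: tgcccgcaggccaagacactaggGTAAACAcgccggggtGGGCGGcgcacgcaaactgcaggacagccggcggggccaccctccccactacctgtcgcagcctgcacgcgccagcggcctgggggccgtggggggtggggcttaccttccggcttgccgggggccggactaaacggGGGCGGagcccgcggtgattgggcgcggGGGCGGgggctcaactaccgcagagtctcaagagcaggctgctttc
Bbc3, chr7:16310082-16310111, plus strand: gtctggcgggttTGTTTACaaacaatgggg

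The motifs were searched on both strands, and matches that share bases were all counted. The forkhead letters GTAAACA, which Foxo factors are known to read, were in 2 of the 15 member windows and in 3.17% of the 32851 windows of the table. The match of Bcl2l11 begins 227 bases before the start, and that of Bbc3, read as TGTTTAC on the shown strand, 167 bases before it. The GC box GGGCGG was in 10 of 15 member windows and in 32.74% of all windows, with 7 matches in the window of Bcl2, 3 in the shown window of Bcl2l11 and 1 in that of Mcl1. The NFAT core GGAAAA was in 3 member windows (20.43% of all), of Bcl2l1 and Bak1. The E box CACGTG was in 2 (6.02% of all), of Bbc3 and Bax. No member window held the STAT letters TTCNNNGAA (7.02% of all) or the CRE letters TGACGTCA (1.55% of all). A match is a run of letters and was not tested as a binding site.

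Values are log2 of the quantile normalised signal plus 16, so the floor is 4.0 and the median signal lies at 5.39. Total deposited signal per array ran from 7324678 to 10608719. Of the 29 member probe sets, 28 passed the filter, a signal over the array's median on 2 or more arrays, and were tested among 29467 probe sets. The 1 that did not was a Bcl2l1 probe set (1426050_at) at 4.38 to 5.23. For each gene the lead probe set is that with the highest mean over the 14 arrays. Probe sets differ in how strongly they bind, so levels are compared between arrays and never between genes.

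The targeted genes were checked first. The log2 signal of Trpm4 was 6.95 in Th1 cells given Thy1 siRNA against 6.23 in those given Trpm4 siRNA, and 7.25 against 6.62 in Th2 cells. Untreated cells had 6.90 in Th1 and 7.59 in Th2. The vector and DN arrays of Th1 cells had 6.35 and 6.95 at 4 h and 6.62 and 9.21 at 12 h. Those of Th2 cells had 6.90 and 6.995 at 4 h and 7.27 and 7.06 at 12 h, so the DN array was not above the vector array in Th2 at 12 h. The files used here do not say if the Trpm4 probe set reads the DN construct. Thy1, a surface glycoprotein of T cells, was at 11.12 and 9.61 with its own siRNA and at 12.46 and 11.71 with Trpm4 siRNA, so both targets differed between the arms of each siRNA pair.

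The labelled cell types were checked against their markers. Of 7 T cell markers, 6 had a probe set and were above the median on all 14 arrays. Gata3, the defining factor of Th2 cells, was at 7.89 to 8.61 in Th1 arrays and 10.82 to 11.50 in Th2 arrays, and Il4 at 4.25 to 5.40 and 8.05 to 12.82. Ifng was at 10.71 to 13.41 in Th1 and 5.48 to 10.70 in Th2 arrays. Gata3 and Il4 did not overlap between the cell types, and the ranges of Ifng nearly met. The other 4 of 5 Th1 markers overlapped, with Tbx21, the defining factor of Th1 cells, at 8.73 to 11.01 in Th1 and 6.51 to 10.43 in Th2 arrays. Il13, another Th2 cytokine, reached 10.16 in Th1 arrays and overlapped with the 8.28 to 12.55 of Th2. Normalised signals of markers of other cells were summed on each array. The sum of 3 B cell genes was 47.0 to 83.3 in Th1 and 58.9 to 189.8 in Th2 arrays, and that of 6 macrophage and dendritic cell genes 159 to 320.8 and 218.3 to 465.5. That of 2 CD8 T cell genes was 15.7 to 385.7 and 22.9 to 186.6. A natural killer gene was at 7.87 to 134.6 and 2.78 to 19.9, and an erythroid gene at 1.46 to 22.7 and 4.12 to 13.8. Of these 13 genes Adgre1 was above the median on all 14 arrays, the erythroid gene Hba-a1 on none and the others on some, and the part of other cells in the results was not tested.

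The arrays were of 2 kinds in how far signal was lost towards the 5′ end of transcripts. The infected Th1 arrays at 4 h and all infected Th2 arrays, 6 in number, had a 3′ Gapdh control probe set 5.64 to 6.07 log2 units above the 5′ one. For Actb the step was 3.91 to 4.92. On the other 8 arrays the same differences were -0.36 to 0.06 and 0.04 to 0.51. Comparisons that set 1 kind against the other are marked as such below. Th1 and Th2 were of like kind in 5 of 7 pairs, and 12 h and 4 h in the Th2 pairs alone.

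**Figure D1:**
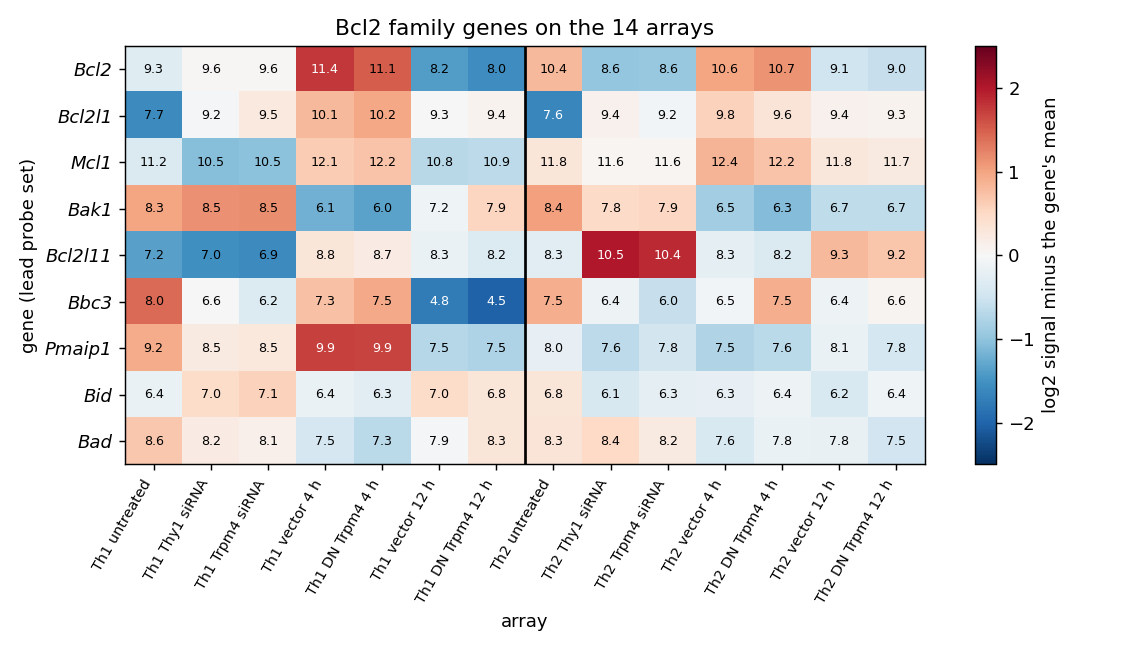
Log2 normalised signal of the lead probe set of each of the 9 genes (rows) on each of the 14 arrays (columns, Th1 left of the black line, Th2 right), printed in each cell and coloured by the difference from the mean of the gene. Bcl2l11 was highest on the Th2 siRNA arrays (10.51 and 10.37), Pmaip1 on the Th1 arrays at 4 h (9.94 and 9.93) and Bbc3 lowest on the Th1 arrays at 12 h (4.81 and 4.52).

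The genes differed in how far they ranged over the conditions. The lead probe sets of Bcl2l11, Bbc3 and Bcl2 spanned 3.59, 3.45 and 3.33 log2 units over the 14 arrays. Among the other probe sets 1440770_at of Bcl2 spanned 5.57. Matched arrays with and without Trpm4 inhibition lay close together in most genes, and the large steps were between cell types, between sets of arrays and between 4 h and 12 h, as the heatmap shows.

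Mcl1 was lower in Th1 than in Th2 cells. Between the cell types 6 of 28 member probe sets (21.4%) passed, 5 of Mcl1 and 1 of Bcl2, against 9.79% of all probe sets tested. The lead Mcl1 probe set was at 11.15 in untreated Th1 cells, 10.46 and 10.49 with Thy1 and Trpm4 siRNA, 12.15 and 12.24 with vector and DN Trpm4 at 4 h, and 10.82 and 10.87 at 12 h. In Th2 cells the values, in the same order, were 11.81, 11.58 and 11.58, 12.37 and 12.23, and 11.81 and 11.75. Th1 was the lower array in 6 of 7 pairs by 0.22 to 1.12, and the DN pair at 4 h differed by 0.01. The mean difference was -0.71 ± 0.16 (SE, 7 pairs, 1.63-fold, limma adjusted p = 0.0262), and 4 other Mcl1 probe sets passed at -0.77 to -1.11. The sixth Mcl1 probe set was at -0.47 (adjusted p = 0.0654). In bulk RNA, fewer cells of a type and less RNA per cell cannot be told apart.

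Among all probe sets that passed, 37.3% were higher in Th1, and 25.1% on the deposited scale. The median over the 9 lead probe sets was 0.05, and over all probe sets tested 0.01. Over the 5 pairs of like 3′ bias the lead Mcl1 probe set differed by -0.62 (adjusted p = 0.131) and none of the 6 passed. Its call was also lost without either 12 h pair or either siRNA pair (adjusted p = 0.0668 to 0.0734), with arrays centred on their median (0.0563), and without pairs in the fit (0.272), where 0 members passed.

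Bcl2, the founding survival gene, showed no common direction between the cell types on its lead probe set. The Th1 values of its lead probe set were 9.28 untreated, 9.62 and 9.62 with siRNA, 11.35 and 11.09 at 4 h, and 8.19 and 8.02 at 12 h. The Th2 values were 10.40, 8.62 and 8.63, 10.56 and 10.71, and 9.08 and 9.00. Th1 was above Th2 in the siRNA and 4 h pairs by 0.38 to 0.99 and below it untreated and at 12 h by 0.89 to 1.12, so the mean was 0.02 ± 0.31. Its probe sets 1422938_at, 1437122_at and 1443837_x_at were higher in Th1 in 6 of 7 pairs, all but the untreated one, and the means of all 5 were 0.02 to 0.93. Of the 5, 1 (1422938_at) passed, at 0.93 ± 0.25 (adjusted p = 0.0474). That call was lost in 14 of 17 alternatives, with adjusted p from 0.00162 to 0.268 over them.

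Bcl2l1, the third survival gene, did not pass between the cell types on its lead probe set. In Th1 cells it was at 7.68 untreated, 9.23 and 9.50 with siRNA, 10.07 and 10.22 at 4 h and 9.26 and 9.35 at 12 h. In Th2 cells it was at 7.63, 9.37 and 9.20, 9.84 and 9.57, and 9.37 and 9.35. The untreated array was the lowest in each cell type and the 4 h arrays the highest. Th1 differed from Th2 by 0.14 ± 0.13, with a 95% interval of -0.15 to 0.43.

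Other Bcl2l1 probe sets followed the kind of array. Probe set 1420887_a_at was at 4.30 to 4.65 on the 6 arrays with 3′ bias and at 5.65 to 8.04 on the other 8, and 1426191_a_at at 4.19 to 4.64 and 5.44 to 8.06. The groups did not overlap on either, while the lead probe set was at 9.35 to 10.22 on the biased arrays. Their Th1 minus Th2 values of 3.38 to 3.57 in the 12 h pairs come from arrays of different kind, and cell type and bias cannot be told apart there. Probe sets of other members also split by array kind without overlap. Among them were the lead ones of Bak1 (6.02 to 6.73 with bias, 7.24 to 8.52 without) and Bad (7.28 to 7.80, 7.93 to 8.63). In the same order, Bid 1448560_at was at 4.09 to 4.56 and 4.99 to 6.74. Mcl1 1456381_x_at was higher with bias (10.16 to 11.11, 7.78 to 9.69), as was Bcl2 1440770_at (8.96 to 11.45, 5.88 to 8.40). The share of all probe sets that split so was not counted, so the split is not shown to be particular to these members.

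**Figure D2:**
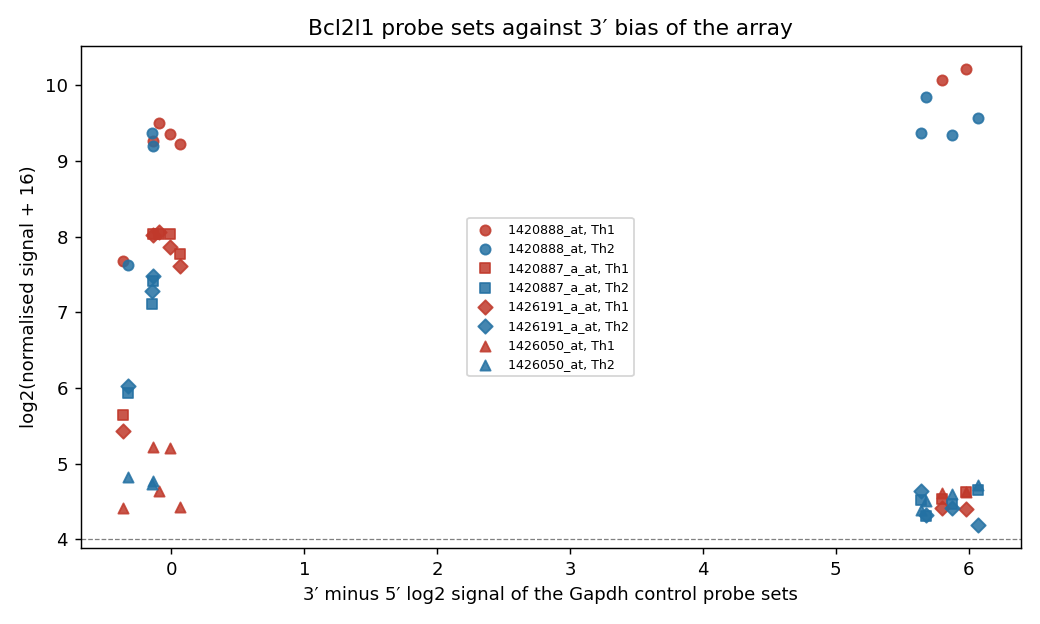
Log2 normalised signal of the 4 Bcl2l1 probe sets (vertical axis, dashed line at the floor) against the 3′ minus 5′ log2 difference of the Gapdh control probe sets (horizontal axis), 1 point per array, red for Th1 and blue for Th2. On the 6 arrays at the right, 1420887_a_at and 1426191_a_at are between 4.19 and 4.65, and the lead probe set 1420888_at is at or above 9.35.

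Bak1, the pore-forming effector, did not pass between the cell types. Its lead probe set had Th1 values of 8.34 untreated, 8.49 and 8.52 with siRNA, 6.15 and 6.02 at 4 h and 7.24 and 7.89 at 12 h. The Th2 values were 8.38, 7.83 and 7.87, 6.48 and 6.26, and 6.71 and 6.73. Every infected array was below every other array of its cell type, and Th1 minus Th2 was 0.34 ± 0.19 (adjusted p = 0.282). The 6 arrays with 3′ bias were also all below the other 8.

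Bcl2l11, which encodes Bim, had the widest range among the lead probe sets, set by the Th2 siRNA arrays. Its lead probe set was at 10.51 and 10.37 there and at 6.98 and 6.92 on the Th1 siRNA arrays. Untreated cells had 7.16 in Th1 and 8.25 in Th2. Infected Th1 cells had 8.81 and 8.72 at 4 h and 8.34 and 8.17 at 12 h, and infected Th2 cells 8.27 and 8.16, and 9.33 and 9.21. Th1 was lower in the untreated, siRNA and 12 h pairs, by 3.53 and 3.45 with siRNA, and higher at 4 h by 0.55 in both pairs. The mean of -1.29 ± 0.50 did not pass (adjusted p = 0.133), nor did the other 4 probe sets at -0.76 to -1.33.

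Pmaip1, which encodes the Mcl1-binding protein Noxa, was higher in Th1 than in Th2 cells in all pairs but those at 12 h. In Th1 cells it was at 9.16 untreated, 8.46 and 8.49 with siRNA, 9.94 and 9.93 at 4 h, and 7.53 and 7.46 at 12 h. In Th2 cells it stayed between 7.48 and 8.07. Th1 exceeded Th2 by 0.71 to 2.45 in the 5 pairs of like 3′ bias and was lower by 0.32 and 0.55 in the 12 h pairs. Over all 7 pairs the difference of 0.95 ± 0.36 did not pass (adjusted p = 0.122), while over the 5 it was 1.51 (adjusted p = 0.0354). Pmaip1 was then 1 of 28 member probe sets to pass, against 1256 of all 29467 probe sets. The pairs of unlike kind are those at 12 h, so time and array kind cannot be told apart here.

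The remaining BH3-only genes did not pass between the cell types. Bbc3, which encodes Puma, a target of p53 and Foxo3, was at 4.52 to 7.97 in Th1 and 5.98 to 7.46 in Th2 arrays (-0.29 ± 0.34). Its Th1 values at 12 h, 4.81 and 4.52, lay below the median signal. Bid, which links death receptors to the mitochondrion, was at 6.26 to 7.12 and 6.13 to 6.83 (0.34 ± 0.19). Bad, whose activity is governed by phosphorylation, was at 7.28 to 8.63 and 7.47 to 8.45 (0.05 ± 0.16), and the cell types overlapped on all 3 genes.

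**Figure D3:**
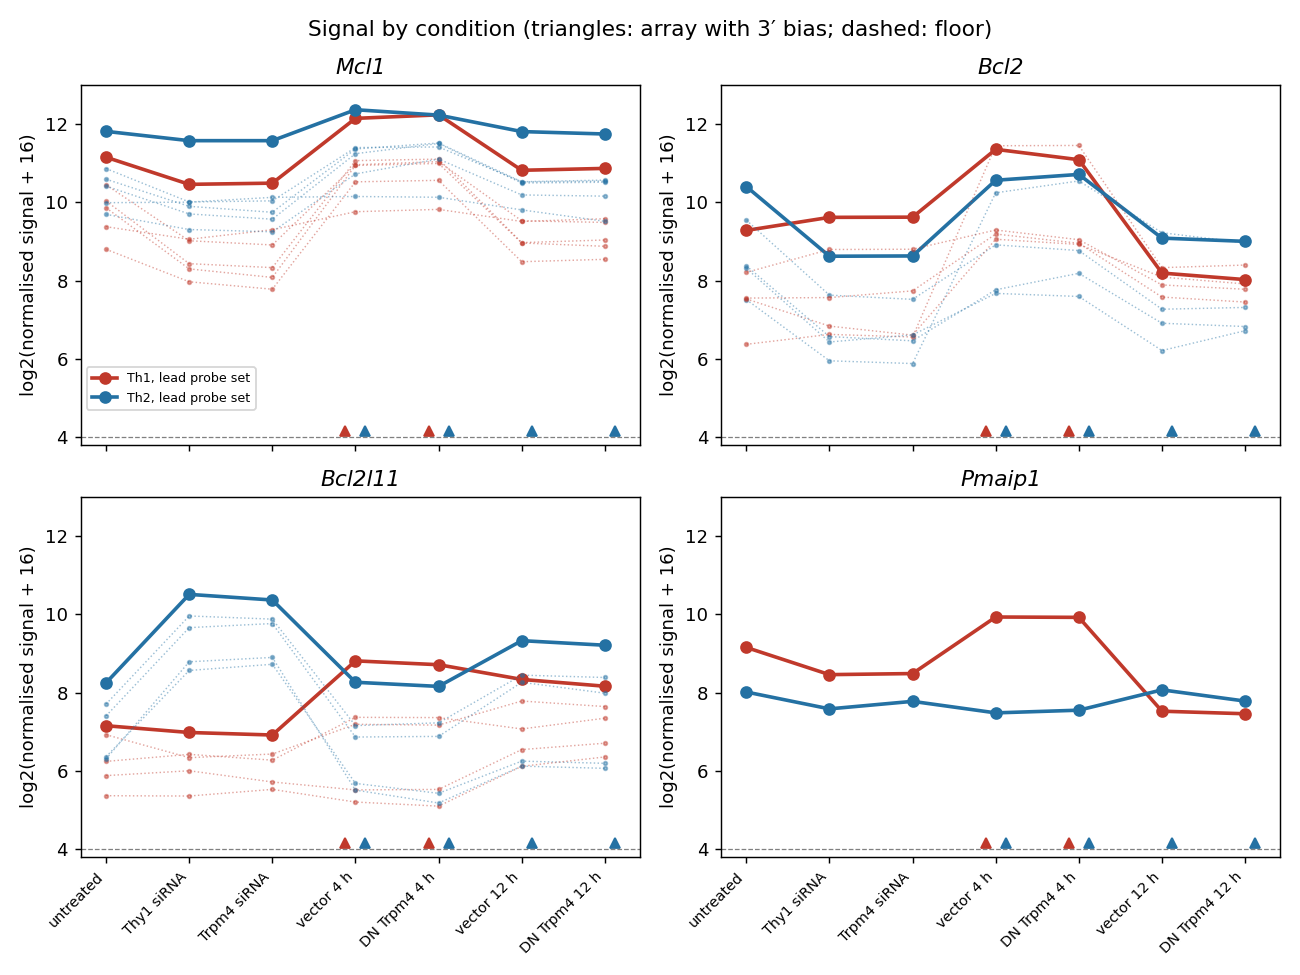
Log2 normalised signal of Mcl1, Bcl2, Bcl2l11 and Pmaip1 in the 7 conditions (horizontal axis), red for Th1 and blue for Th2, with the lead probe set as large points, the other probe sets as small dotted ones, and triangles under arrays with 3′ bias. Lines join the conditions as a guide, and the Th2 line of Mcl1 lies above the Th1 line except with DN Trpm4 at 4 h.

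Inhibition of Trpm4 moved no member past the test. Over the 6 pairs of Trpm4 inhibited minus control, 0 of 28 member probe sets passed in limma, with 0 at an unadjusted p under 0.05, and 0% of all probe sets passed (5.88% at an unadjusted p under 0.05). The lead probe sets differed by -0.12 to 0.06, and their 95% intervals lay within -0.30 to 0.40. The lead probe set of Bcl2l11 was lower with Trpm4 inhibited in 6 of 6 pairs, by 0.06 to 0.17, a mean of -0.12 ± 0.06 (adjusted p = 0.846). The means of its other probe sets were between -0.04 and 0.005.

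The same held when each cell type or method was taken alone. In Th1 the members passing were 0 of 28 (0% of all probe sets; 0 members and 3.15% of all at an unadjusted p under 0.05), and in Th2 0 of 28 (0% of all; 1 member, a Bid probe set, and 6.19% of all unadjusted). The difference of the effect between Th1 and Th2 passed for 0 of 28 (0% of all; 2 members and 3.5% of all at an unadjusted p under 0.05). The lead probe set of Bcl2l1 was at 0.17 ± 0.10 in Th1 and at -0.16 ± 0.10 in Th2. It was above its control in 3 of 3 Th1 pairs and below it in 3 of 3 Th2 pairs, and the difference of 0.33 ± 0.14 had an adjusted p of 1 in limma. Its other tested probe sets differed less, with 1420887_a_at at 0.12 in Th1 and 0.20 in Th2, and 1426191_a_at at 0.09 and -0.06.

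The DN virus and the siRNA gave 0 of 28 each (0% of all probe sets in each), with 0 and 4 members at an unadjusted p under 0.05. Of all probe sets 3.38% and 11.3% had such a p. Bbc3 was at -0.40 ± 0.10 over the 2 siRNA pairs (adjusted p = 0.409) and at 0.28 ± 0.17 over the 4 DN pairs (adjusted p = 1). The 4 DN pairs of Bbc3 ran from -0.29 to 0.97. The 95% intervals of all 28 member probe sets lay within -0.34 to 0.64 for DN Trpm4 and within -0.66 to 0.83 for siRNA, where the fit had 1 residual degree of freedom. These intervals bound the size of a change in either direction and do not show that levels were equal.

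**Figure D4:**
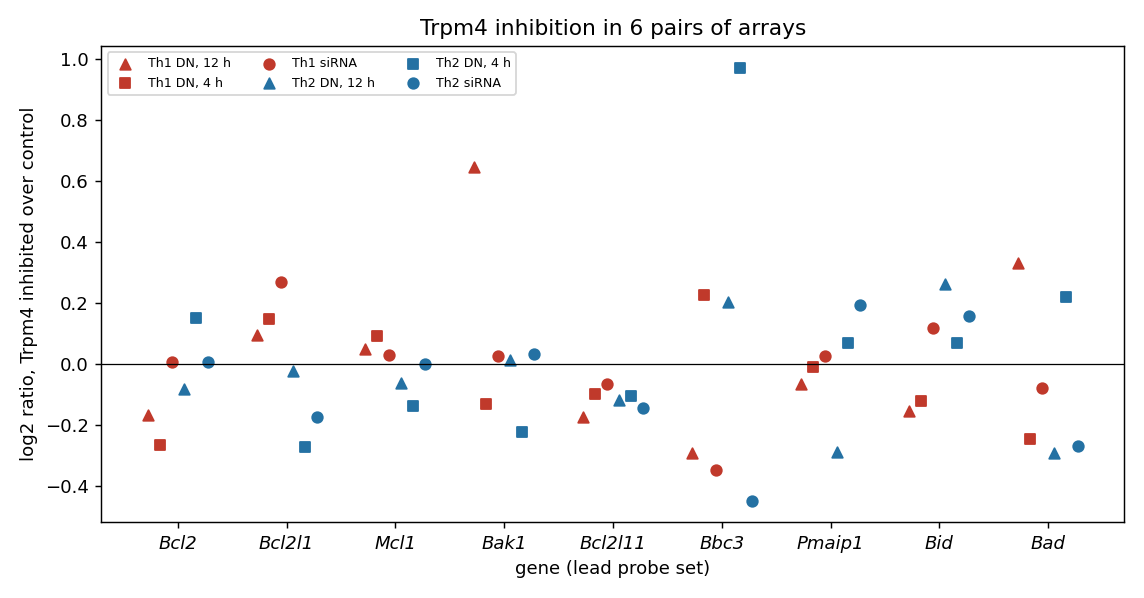
Log2 ratio of Trpm4 inhibited over control (vertical axis) for the lead probe set of each gene (horizontal axis) in each of 6 matched pairs, red for Th1 and blue for Th2, with squares and triangles for DN Trpm4 at 4 h and 12 h and circles for siRNA. Most points lie within 0.3 of 0, and Bcl2l11 is below 0 in all 6 pairs.

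Bcl2 was lower at 12 h than at 4 h of stimulation in both cell types. Of 28 member probe sets 5 (17.9%) passed, all lower at 12 h, against 2.01% of all probe sets. The lead Bcl2 probe set went from 11.35 and 11.09 to 8.19 and 8.02 in Th1, and from 10.56 and 10.71 to 9.08 and 9.00 in Th2. The mean over 4 pairs was -2.35 ± 0.34 (5.11-fold, adjusted p = 0.0412). In the same fit 3 more of its 5 probe sets passed, at -1.05 to -1.44, and the other was at -2.19 (adjusted p = 0.0542). Mcl1 was lower at 12 h in 4 of 4 pairs, by 0.48 to 1.37 on the lead probe set (-0.93 ± 0.21, adjusted p = 0.0744), and 1 of its 6 probe sets (1416880_at) passed at -1.18 (adjusted p = 0.0437).

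Of all probe sets that passed, 35.5% were higher at 12 h, and 16.6% on the deposited scale and 18.5% with arrays centred on their median. Without any 1 of the 4 pairs 0 members and 0 probe sets in all passed, with the lead Bcl2 probe set at -2.09 to -2.65, and with a pseudocount of 1 the counts were also 0. In Th1 the 4 h arrays had 3′ bias and the 12 h arrays did not, so time and bias cannot be told apart there. In the Th2 pairs, both of like kind, 13 of 28 member probe sets passed, against 1846 of 29467 in all, with Bcl2 at -1.60 (adjusted p = 5.76e-04). They were of Bcl2, Bcl2l11 and Mcl1. This fit of 2 pairs of 1 cell type had 1 residual degree of freedom.

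The other members had no common time course. In the fit of the Th2 pairs alone, with its 1 residual degree of freedom, Bcl2l11 was higher at 12 h by 1.06 (adjusted p = 0.00544). In Th1 the pairs of its lead probe set were at -0.47 and -0.55. Its other probe sets did not share that direction in Th1, where 1435448_at, 1456006_at and 1426334_a_at had means of 0.53, 1.11 and 1.09 and 1435449_at of -0.16. Bbc3 was lower at 12 h in 4 of 4 pairs, by 2.46 and 2.98 in Th1 and 0.06 and 0.82 in Th2 (-1.58 ± 0.50, adjusted p = 0.125). Pmaip1 was lower by 2.41 and 2.46 in Th1 and higher by 0.59 and 0.23 in Th2. Bak1 was higher at 12 h in 4 of 4 pairs, by 0.23 to 1.87 (0.92 ± 0.29, adjusted p = 0.123).

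The difference of the time effect between Th1 and Th2 passed for 16 of 28 member probe sets (57.1%), from 8 of 9 genes, against 38.2% of all probe sets tested. Of the lead probe sets, Pmaip1 differed by -2.85 ± 0.21, Bbc3 by -2.28 ± 0.29 and Bcl2l11 by -1.57 ± 0.19, each lower in Th1 than in Th2. Bak1 differed by 1.14 ± 0.27 (adjusted p = 0.0117) and Bid by 0.67 ± 0.20, the other way. The call of Bak1 was lost in 2 of 14 alternatives and that of Bid in 5 of 14, while those of Pmaip1, Bbc3 and Bcl2l11 were lost in 0. Bcl2l11 probe sets 1456006_at and 1426334_a_at, at 0.44 and 0.34, did not pass. This contrast sets a change of array kind in Th1 against none in Th2, so the cell type and the 3′ bias cannot be told apart.

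**Figure D5:**
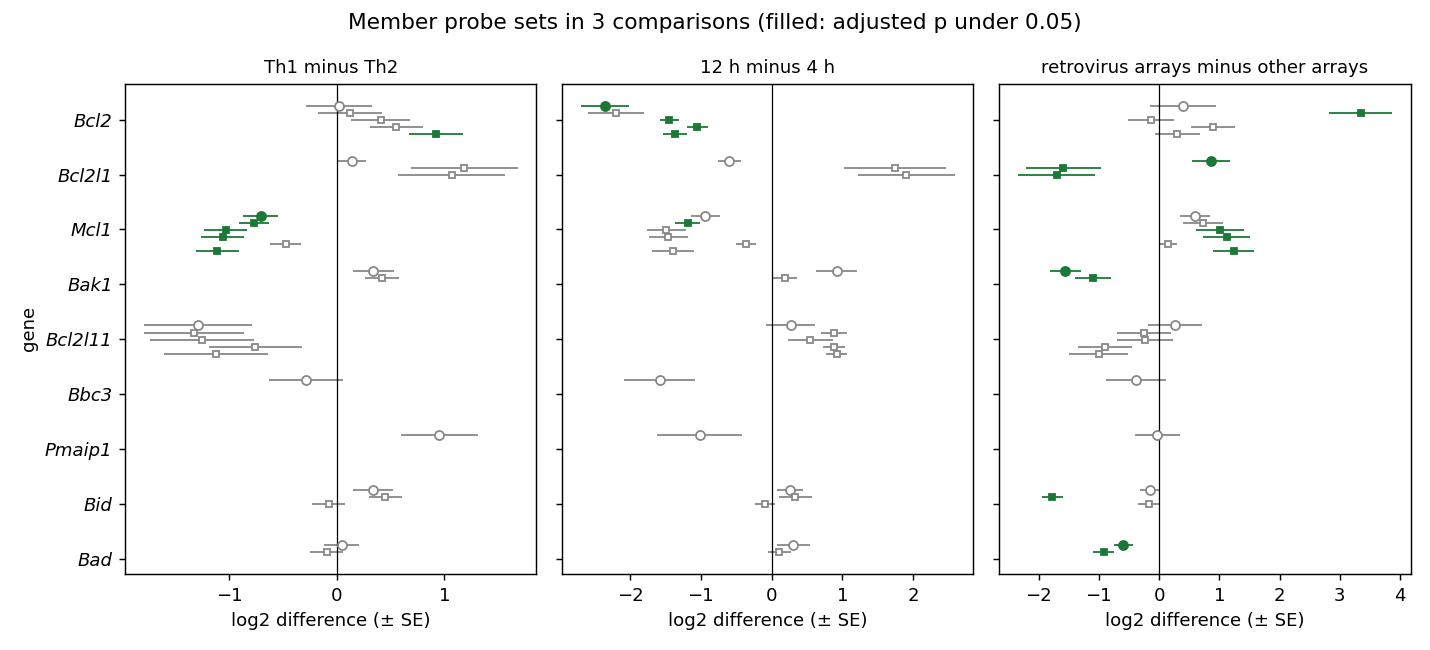
Log2 difference (horizontal axis, bars are ± SE of the limma fit) of each tested member probe set, grouped by gene, for Th1 minus Th2, 12 h minus 4 h, and infected arrays minus the other arrays. Circles are lead probe sets and squares the others. Filled green symbols have an adjusted p under 0.05, at 6, 5 and 12 of 28 probe sets.

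The 8 infected and stimulated arrays differed from the 6 untreated and siRNA arrays in 12 of 28 member probe sets (42.9%, 5 higher and 7 lower), near the 45.2% of all probe sets. Bak1 was lower by 1.55 ± 0.25 on the log2 scale (2.94-fold, adjusted p = 2.53e-04), Bad was at -0.59 ± 0.16 (adjusted p = 0.00865) and Bcl2l1 at 0.86 ± 0.32 (adjusted p = 0.0395). That call of Bcl2l1 was lost in 11 of 25 alternatives, among them the deposited scale (0.68, adjusted p = 0.179), median centring (0.62, adjusted p = 0.183), no filter (adjusted p = 0.0511) and arrays without 3′ bias (0.51, adjusted p = 0.684). The other Bcl2l1 probe sets were at -1.59 and -1.70, the opposite sign, and both turned to 0.89 and 0.90 on the arrays without 3′ bias alone. Among Bcl2 probe sets 1440770_at was at 3.34 ± 0.52, and the other 4 at -0.13 to 0.90 did not pass. Mcl1 1437527_x_at, 1456243_x_at and 1456381_x_at passed at 1.01, 1.12 and 1.24. On the arrays without 3′ bias alone they were at 0.07, 0.17 and 0.33 and did not pass. The other Mcl1 probe sets, at 0.14 to 0.73, did not pass over all arrays.

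Infection, stimulation and the set of arrays cannot be told apart in this contrast, and all 6 arrays with 3′ bias are infected ones. On arrays without bias alone 3 member probe sets passed, of 2964 in all. They were Pmaip1 at -1.21 (adjusted p = 0.0295), Bid 1448560_at at -1.51 (adjusted p = 0.0119) and Bcl2 1440770_at at 1.85 (adjusted p = 0.0496). That Bid probe set was at 5.11 and 4.99 on the infected Th1 arrays at 12 h, below the median signal. The lead Bid probe set differed by 0.08 in this fit. Bak1 was at -0.88 (adjusted p = 0.0855) and Bad at -0.19. With vector arrays against untreated arrays 5 passed, of 7755 in all, with Bak1 at -1.72 (adjusted p = 0.0175) and Bcl2l1 at 1.99 (adjusted p = 0.00958). Bid 1448560_at was at -2.1 there (adjusted p = 0.00863). Leaving out any 1 of the 4 infected arrays at 4 h gave 7, of 11671 to 12092 in all.

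The effect of infection and stimulation in Th1 minus that in Th2 passed for 0 of 28 (limma; 5 at an unadjusted p under 0.05), against 0.628% of all probe sets (11% at an unadjusted p under 0.05). Bcl2l11 had the largest value among the lead probe sets, 2.46 ± 0.66 (adjusted p = 0.142). Without the untreated Th2 array 5 member probe sets passed, all of Bcl2l11, of 586 in all. Its level on that array, 8.25, lay more than 2 log2 units below the Th2 siRNA arrays. The infected Th1 arrays were of both kinds, while all infected Th2 arrays had 3′ bias. Cell type and array kind cannot be told apart in this contrast either.

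Other genes of the pathway were read from 4 lists. Of 12 other Bcl2 family genes tested, Bik, a BH3-only gene, was lower in Th1 than in Th2 by 2.57 ± 0.25 on the log2 scale (adjusted p = 3.35e-04), and none was higher. Of 18 genes that act downstream of the mitochondrion, Casp6, an executioner caspase, was at -2.0 ± 0.13, and of 20 regulators Ddit3, a stress factor also called CHOP, was at -0.52 ± 0.13. Of 10 death receptor genes none passed. The counts were thus 1 of 12, 1 of 18, 1 of 20 and 0 of 10, in a comparison where 9.79% of all probe sets passed. The medians of the 4 lists were between -0.08 and 0.07, and that of all probe sets 0.01.

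At 12 h against 4 h, where 2.01% of all probe sets passed, 1 gene of the 4 lists did, the survival kinase Pim2 at -0.87 ± 0.14 (adjusted p = 0.0456). No gene of these lists passed in the Trpm4 comparisons. On infected arrays against the others, where 45.2% of all probe sets passed, 2 other family genes were higher and 5 lower, with Bnip2 at 1.38 and Hrk, a BH3-only gene, at -1.29. Downstream genes were higher for 5 and lower for 1, receptor genes higher for 1 and lower for 5, and regulators higher for 1 and lower for 3. Among these Fas, the death receptor, was at -1.26, Cflar, its inhibitor, at 0.87, and the cytokine receptor chain Il2rb at -2.51. The time effect, which differed between Th1 and Th2 for 38.2% of all probe sets, had 1 higher and 4 lower among other family genes, 1 and 10 downstream, 3 and 1 among receptors and 2 and 8 among regulators. Il7r, the receptor of a survival cytokine, had the lowest of these values, -2.41 ± 0.20. Infected arrays against the others and the difference of the time effect both set arrays with 3′ bias against arrays without it. Array kind cannot be told apart from infection or cell type there, nor from time in the Th1 pairs at 12 h against 4 h.

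The genes with profiles most like the 3 widest lead probe sets were found by the root mean square difference of centred log2 profiles over the 14 arrays, among 13017 genes. For Bcl2l11 they were Lifr (0.43), Gnai1 (0.53) and Gpr174 (0.54), with a median of 1.17 over all genes. For Bbc3 they were Gm5547 (0.27), Pitpnc1 (0.32) and Fam78a (0.32), and for Bcl2 Filip1l (0.40), Cbx7 (0.47) and Neurl3 (0.48). These are distances over arrays that share cultures and array kind, with no test.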

How the data were processed

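The deposited values are probe set intensity on a linear scale, 1 column per array, per the file headers; the probe summary and scaling that the authors used are not given in the sources at hand. Total RNA was extracted with Trizol and labelled with biotin, per the labels' protocols. Of 45101 probe sets, 34958 were annotated to 1 gene, 932 to several and 9211 to none, and 64 were controls. Symbols of all 29 member probe sets matched their Entrez identifiers.

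After quantile normalisation, 16 was added to each signal and log2 taken. Probe sets over the array's median on at least 2 arrays were kept. Comparisons were fitted in R 4.3.3 with limma 3.58.1 (lmFit, eBayes), each pair of arrays entering as a block, or cell type as covariate for infected against other arrays. Tests were two-sided, with Benjamini-Hochberg adjustment over all 29467 probe sets and a limit of 0.05. The fits were run on simulated data with planted changes. Those data held neither shared cultures nor 3′ bias, so the run does not bear on the p-values of these arrays. Probe sets of all members, the lead probe set per gene, list genes that passed (up to 4 per direction) and the 3 most alike genes of the 3 widest members could be named. Arrays were called 3′ biased where the Gapdh difference was over 2. Members, lists and alternatives were chosen with earlier results of these data known. Alternatives were deposited values, centring on medians, pseudocounts of 1 and 64, no filter or one at the 75th percentile, a variance trend, robust eBayes, lead probe sets alone, a fit without pairs, pairs or arrays left out in turn, and subsets by 3′ bias.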

Additional observations from a re-analysis of the deposited data

Results flagged for a closer look

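The change from 4 h to 12 h of stimulation differed between Th1 and Th2 cells, by the test of the difference itself (limma, adjusted p under 0.05, 2 pairs per cell type), for 16 member probe sets. Values are the Th1 change minus the Th2 change on the log2 scale. Among survival genes, Bcl2 differed by -1.52 (1457687_at) and -1.79 (1440770_at). Its other probe sets, at -0.39 to 0.21, did not pass. Mcl1 differed by -0.83 (1448503_at), -0.62 (1416880_at), -1.19 (1437527_x_at), -1.18 (1456243_x_at) and -1.29 (1456381_x_at). Its probe set 1416881_at, at 0.23, did not pass. Bcl2l1 differed by 3.44 (1420887_a_at) and 3.26 (1426191_a_at), the probe sets near the floor on every array with 3′ bias. The lead Bcl2l1 probe set was at -0.49, the opposite sign, and did not pass.

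Of the effectors, Bak1 differed by 1.14 (1418991_at). Of the BH3-only genes, Bcl2l11 differed by -1.57 (1456005_a_at), -0.69 (1435448_at) and -1.41 (1435449_at), Bbc3 by -2.28 (1423315_at), Pmaip1 by -2.85 (1418203_at) and Bid by 0.67 (1417045_at). Bcl2l11 probe sets 1456006_at and 1426334_a_at, at 0.44 and 0.34, did not pass. Nor did Bak1 1425716_s_at (0.46), Bid 1448560_at (0.68) and Bid 1447873_x_at (-0.13). Pmaip1 went down in Th1 and up in Th2 in every pair, and so did the lead probe set of Bcl2l11. The 4 h arrays of Th1 had 3′ bias and its 12 h arrays did not, while all these Th2 arrays had it, so cell type and array kind cannot be told apart.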

How the results depend on the processing

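For the 4 comparisons with members called, 53 of 72 alternatives gave a count within 1.5 times that reported, and 7 of 15 for 12 h against 4 h. With 1 probe set per gene, which leaves 9 member probe sets, 1 passed between Th1 and Th2, 1 at 12 h against 4 h, 7 in the difference of the time effect and 3 on infected arrays. Without pairs in the fit 0 passed between Th1 and Th2 and 17 at 12 h against 4 h, and with a pseudocount of 1 the latter was 0. With pairs of like 3′ bias these counts were 1 and 13. On infected arrays 3 passed among arrays without bias and 5 for vector against untreated. Leaving out a pair or array gave 4 to 8 between Th1 and Th2, 0 to 0 at 12 h against 4 h, 11 to 19 for the difference of the time effect, 7 to 14 on infected arrays, and 0 to 5 for the difference of the infection effect. The fit of the siRNA comparison without 1 of its 2 pairs had no residual degrees of freedom and was not run. In the Trpm4 comparisons every alternative run gave 0 members.

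Gene values that changed sign were not called either way, except Bcl2l1 on infected arrays. Between Th1 and Th2, Bad went to -0.08 on the deposited scale, 0.00 with median centring, -0.08 without the DN pair at 12 h, 0.00 without the untreated pair and -0.12 with pairs of like bias (0.14 at the highest without 1 pair). Bbc3 went to 0.02 without the DN pair at 12 h and 0.34 with pairs of like bias (-0.47 at the lowest without 1 pair), and Bcl2 to -0.04 to -0.14 without either siRNA pair or either 4 h pair (-0.11 without vector at 4 h, and 0.21 at the highest without 1 pair). At 12 h against 4 h with pairs of like bias, Pmaip1 went to 0.41, Bid to -0.08 and Bad to -0.07. On infected arrays Pmaip1 went to 0.01, 0.02, 0.06, 0.15 and 0.16 without single arrays (-0.22 at the lowest). Without biased arrays the lead probe set of Bcl2 went to -1.40, that of Bid to 0.08, and Bcl2l1 to 0.89 and 0.90. For vector against untreated Bcl2 went to -0.04. The causes were not tested. Signals near the floor understate differences, which limits Bbc3 in Th1 at 12 h, Bcl2l1 on biased arrays and Bid 1448560_at on infected arrays.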
